A study of Mus musculus with 23 samples.

Results

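To describe the Wnt pathway at the cell surface of murine pancreatic ductal adenocarcinoma (PDAC), the genes of its ligands, receptors, secreted antagonists and feedback regulators were followed across 23 cell lines. A gene belonged to the set when its single platform symbol was that of a Wnt ligand, a Frizzled (Fzd) receptor, an Sfrp or a Dkk antagonist, or was Lrp5, Lrp6, Axin2, Lgr4, Lgr5, Rnf43, Znrf3 or Wif1. This gave 45 of the 18193 genes with 1 symbol on the array, measured by 86 probe sets, and each gene was described by its probe set with the highest mean over the 23 lines. The rule used names only and no measured difference between lines, but it was chosen with earlier results of these data known.

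Wnt proteins are secreted lipid-modified ligands that bind Frizzled receptors together with the co-receptors Lrp5 and Lrp6. In the canonical branch this stops the destruction of beta-catenin, which then drives transcription with Tcf factors, while other branches act through Ror, Ryk and Dvl proteins on cell shape and movement. Sfrp proteins and Wif1 bind Wnt ligands outside the cell, and Dkk1, Dkk2 and Dkk4 bind the Lrp co-receptors. Dkk3 was grouped with these antagonists by its name only. Rnf43 and Znrf3 are ubiquitin ligases that remove Frizzled receptors from the membrane. R-spondins, bound by the receptors Lgr4 and Lgr5, block that removal, and Axin2 is a feedback target that limits the canonical branch. In human pancreatic cancer cells, loss of RNF43 is known to make growth depend on Wnt ligands and on FZD5.

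The lines were low-passage, untreated cultures of tumour cells from genetically engineered mice, and RNA of each was hybridised to 1 Affymetrix GeneChip mouse genome array, on which a transcript is measured by sets of short probes. By their names 11 lines had a prefix other than PPT (ASC, B, HEP, LN or PUL) and 12 the prefix PPT, and the prefix was the only group that the labels gave. PPT lines were taken as lines from primary tumours and the others as lines from other sites, and no source used here explains the prefix B. Of the 13 lines with a listed genotype, 10 carried Ptf1a Cre/+ and 3 Pdx1-Cre, both of which drive recombination in the pancreas. Of these 13 lines, 6 also carried LSL-p53 R172H/+ (ASC-5193, B-6051, PPT-5193, PPT-6051, PPT-3107 and PPT-5486), and others carried reporter alleles (LSL-R26 Tva-lacZ/+, LSL-PCNA IRES-fLuc/+ or LSL-PCNA ATG-fLuc/+). The alleles of the other 10 lines are not listed under these names in the sources used here, and no ages were used. The mouse numbers that end the names give 14 mice, 5 of which gave 14 lines, so that lines of 1 mouse were treated as related. The line labelled B-152727 was taken as a line of mouse 15272.

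Because the labels give no state of epithelial-mesenchymal transition (EMT), every line received an EMT score, the mean log2 signal of 8 mesenchymal markers minus that of 10 epithelial markers. None of these markers belonged to the Wnt set. The score ran from 6.24 in ASC-5193 to -1.93 in PPT-15272 and had 1 wide gap, of 2.95, between PPT-5320 at 5.52 and PPT-5486 at 2.57, while the next largest gap was 0.79. The 6 lines above the gap, from 6 mice, are called mesenchymal-like (ASC-5193, PPT-17728, PPT-16992, PPT-3250, ASC-53909 and PPT-5320) and the 17 lines below it epithelial-like. These sides were made from array values and were used only to describe the lines, with no test between them. Tests used the score itself as a continuous measure, in limma with the mouse as a random block, and the slope is the change in log2 signal per unit of EMT score. Means over the epithelial markers lay at 2.998 to 4.06 in the mesenchymal-like and at 5.81 to 9.44 in the epithelial-like lines. Means over the mesenchymal markers overlapped, at 9.23 to 9.59 in the mesenchymal-like and 6.45 to 9.63 in the epithelial-like lines. The highest of all, 9.63, was that of PPT-5486, which is called epithelial-like by its score and had an epithelial mean of 7.06. Single markers of the score differed in this. Cdh1 had 2.22 to 6.48 in the mesenchymal-like and 10.23 to 11.81 in the epithelial-like lines. Vim was high on both sides, at 12.92 to 13.65 and 11.34 to 13.28. Esrp1 was above background in only 3 of the 17 epithelial-like lines. Of the other marker lists, fibroblast genes moved with the score as well: 6 of 8 had a higher signal with rising score, and the list mean was 6.03 to 9.57 in the mesenchymal-like and 3.11 to 9.35 in the epithelial-like lines, with no fibroblast marker below background in every line. Of 6 ductal and pancreatic markers 4 fell with the score, among them Krt19, which also enters the score (list means of 3.46 to 9.24 in the mesenchymal-like and 9.18 to 11.46 in the epithelial-like lines). In the mesenchymal-like against the epithelial-like lines, leukocyte markers had list means of 3.92 to 4.27 against 4.39 to 5.14 with Ptprc and Itgam at background in every line, endothelial markers 2.54 to 2.74 against 2.53 to 2.98 with Pecam1, Cdh5, Tek and Tie1 at background, and acinar markers 3.29 to 4.46 against 2.97 to 4.51 with Cpa1 and Ptf1a at background. The other leukocyte markers, Cd14, Cd68, Csf1r and Cd3e, were above background in every line, and Cd14 fell with the score (slope -0.42, limma, adjusted p = 0.000466), with 6.19 to 7.87 in the mesenchymal-like and 9.10 to 10.91 in the epithelial-like lines, sides that did not overlap. The endothelial marker Kdr and the acinar marker Cel were above background in every line, at 3.65 to 4.78 and 3.70 to 4.51. Cela1, also acinar, was above background in 22 lines and varied widely. It had 3.92 to 8.50 in the mesenchymal-like and 3.47 to 8.98 in the epithelial-like lines (slope -0.06, limma, adjusted p = 0.81). In a bulk culture, fewer cells of a type and less RNA per cell cannot be told apart, and the part of the fibroblast genes and of Cd14 in the results on the Wnt set was not tested.

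Deposited signals are log2 values, on which a difference of 1 is 2-fold, and the table holds no detection calls. A background level of 3.495 was therefore taken from 77 probe sets of olfactory and vomeronasal receptors, as the 95th percentile of their values in all lines (median 2.09, 99th percentile 5.10). Of the 45 members, 22 lay above this level in every line and 8 in no line. The 99th percentile was passed by the highest signal of 26 members and by the lowest signal of 6 members. Among the 19 ligands, Wnt1, Wnt2b, Wnt3, Wnt8a and Wnt8b never rose above background, and Wnt2, Wnt9b, Wnt11 and Wnt16 did so in 1 line each. Wnt3a, Wnt6 and Wnt10b were above it in every line, yet within narrow ranges of 4.04 to 4.78, 4.15 to 4.87 and 3.52 to 4.81 that did not pass the 99th percentile. The antagonists Dkk1, Dkk4 and Wif1 stayed at background throughout, whereas Sfrp1, Sfrp4 and Sfrp5 lay in narrow ranges just above it, between 3.96 and 5.11. Frizzled receptors were more widely above background, 9 of 10 in every line, and Fzd9 passed it in 1 line. The 99th percentile was passed by the highest signal of 8 of the 10 and by the lowest signal of 2. Fzd10 was among those that did not pass it, within a narrow range of 4.32 to 5.03.

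**Figure D1:**
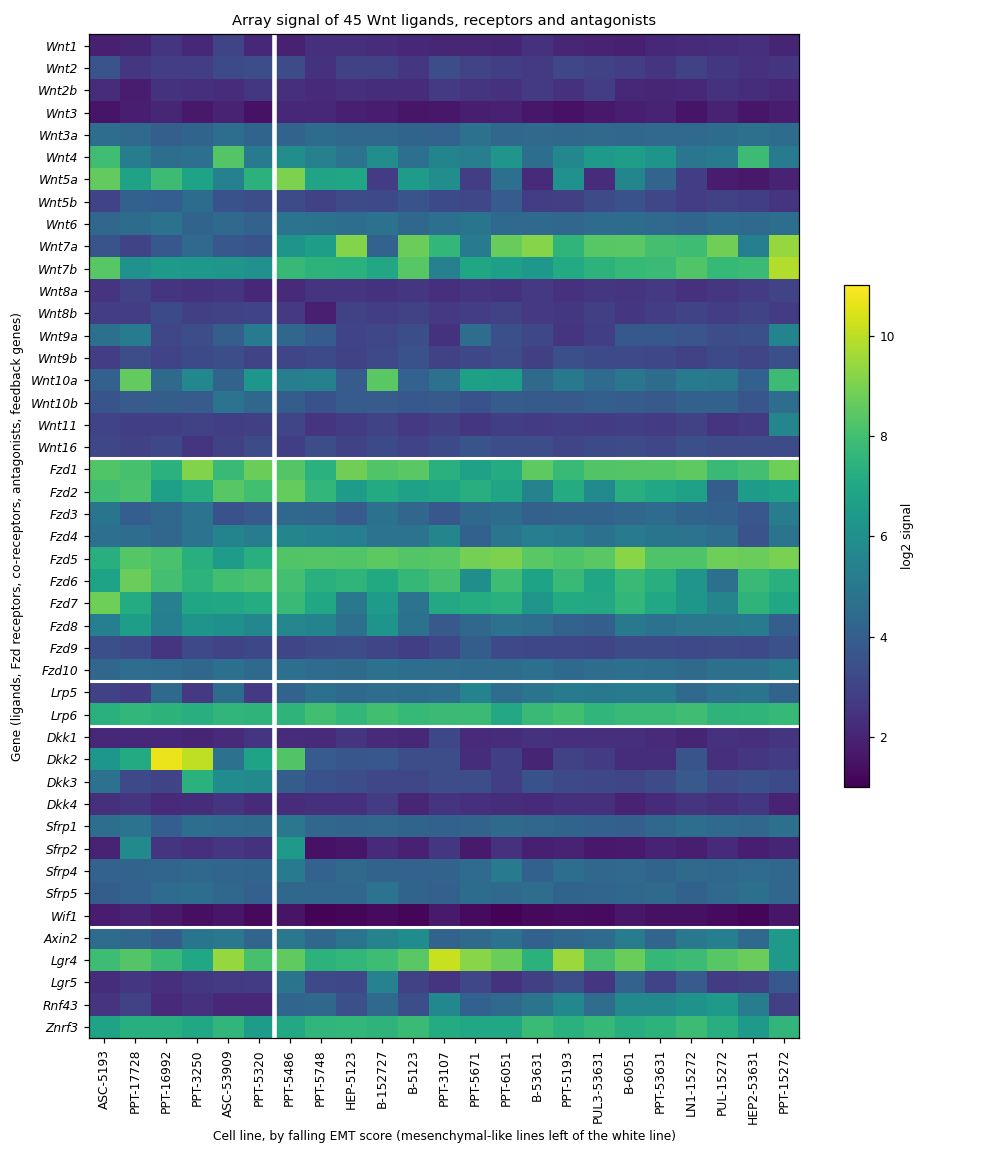
Log2 signal of the 45 genes (rows, in the order ligands, Fzd receptors, co-receptors, antagonists and feedback genes) in the 23 cell lines (columns, by falling EMT score, with the 6 mesenchymal-like lines left of the white line). The colour scale is the log2 signal from 1 to 11, and the rows of Wnt7a and Rnf43 are dark and that of Dkk2 bright left of the line.

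Across EMT state, ligands and surface regulators of the set moved in both directions. With rising EMT score 5 members rose (the antagonist genes Dkk2 and Dkk3, the ligands Wnt5a and Wnt5b and the receptor Fzd8) and 4 fell (the ligand Wnt7a, the receptor Fzd5, the co-receptor Lrp5 and the ubiquitin ligase Rnf43). These 9 members passed an adjusted p of 0.05 from limma over all 45037 probe sets, 20.0% of the set. The same call was made for 11.1% of all probe sets (5.75% higher and 5.39% lower) and for 14.2% of all genes by their brightest probe set, 7.23% higher and 6.94% lower, against 11.1% and 8.89% of the members. With each array centred on its median, 66.3% of the called probe sets were higher with rising score, against 51.6% as deposited, and 10 members passed. With the mouse as a fixed block 0 members passed. Among genes above background in at least 1 line the shares were 24.3% of 37 members and 17.9% of 14015 genes. The median slope of the members was -0.005, and that of all genes was -0.0001. By role the calls were 3 of 19 ligands, 2 of 10 Frizzled receptors, 1 of 2 co-receptors, 2 of 9 antagonists and 1 of 5 feedback genes. No member had signals that were fully separate between the mesenchymal-like and the epithelial-like lines, which 1.65% of all genes and 1.15% of all probe sets had.

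**Figure D2:**
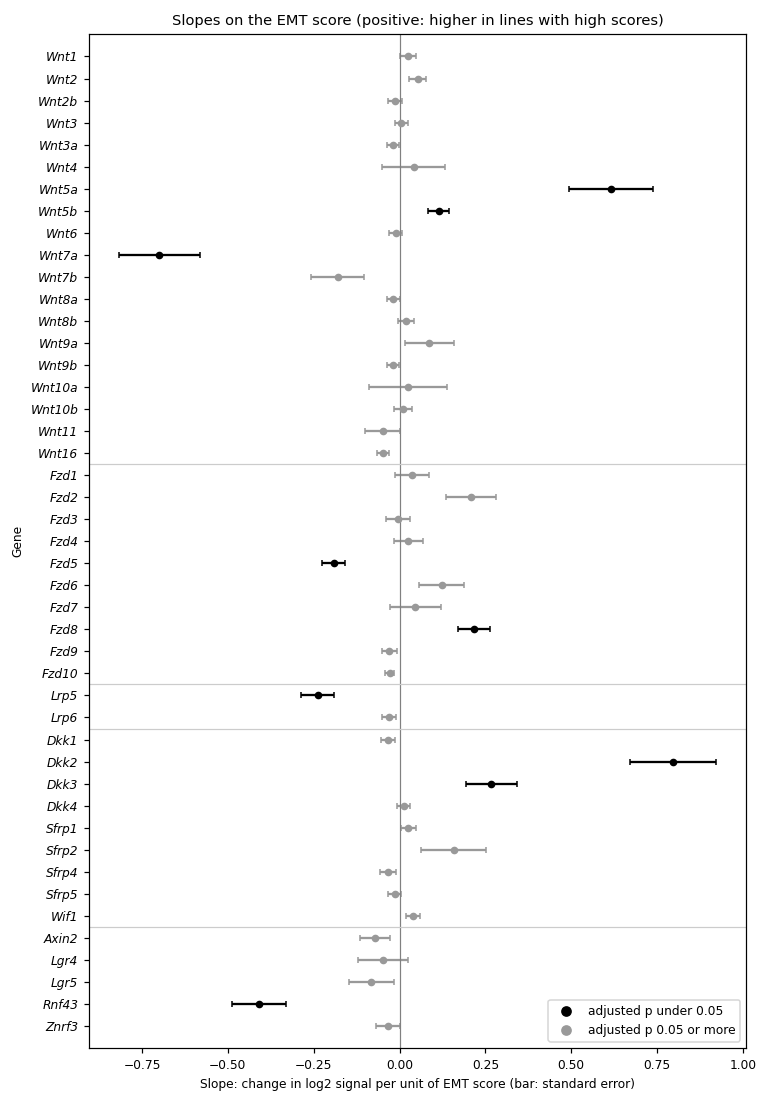
Slope on the EMT score (change in log2 signal per unit of score, limma) of each of the 45 genes, grouped by role from ligands at the top to feedback genes at the bottom. Points are estimates, bars standard errors over 23 lines, and black points the 9 genes with an adjusted p under 0.05, from Dkk2 at 0.80 to Wnt7a at -0.70.

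Dkk2, Wnt7a, Fzd5 and Rnf43 had the smallest p-values of the set. The 250 bases before their transcription starts are given here as the reference for the genes that the description turns on, 5′ to 3′ on the gene's strand, with each CpG in capitals. The sequences and coordinates are those of RefSeq on the mouse build GRCm38.p6, and Rnf43 has 2 listed starts.
Dkk2, chr3:132085042-132085291, plus strand: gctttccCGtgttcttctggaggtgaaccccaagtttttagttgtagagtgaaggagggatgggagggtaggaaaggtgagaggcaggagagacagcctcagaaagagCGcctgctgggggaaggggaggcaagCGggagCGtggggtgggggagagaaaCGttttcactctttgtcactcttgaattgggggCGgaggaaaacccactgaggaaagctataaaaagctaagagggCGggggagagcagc
Wnt7a, chr6:91411354-91411603, minus strand: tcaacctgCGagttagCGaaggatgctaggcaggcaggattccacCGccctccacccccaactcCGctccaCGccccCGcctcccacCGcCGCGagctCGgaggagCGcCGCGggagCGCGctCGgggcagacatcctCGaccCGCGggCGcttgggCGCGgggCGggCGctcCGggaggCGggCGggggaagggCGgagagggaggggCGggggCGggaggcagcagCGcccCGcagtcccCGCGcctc
Fzd5, chr1:64737751-64738000, minus strand: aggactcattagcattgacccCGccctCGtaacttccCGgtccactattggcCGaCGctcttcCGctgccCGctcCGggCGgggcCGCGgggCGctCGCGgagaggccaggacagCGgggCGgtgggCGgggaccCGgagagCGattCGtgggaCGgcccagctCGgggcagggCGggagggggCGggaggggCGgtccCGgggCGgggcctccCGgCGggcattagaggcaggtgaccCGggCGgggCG
Rnf43, first listed start, chr11:87662837-87663086, plus strand: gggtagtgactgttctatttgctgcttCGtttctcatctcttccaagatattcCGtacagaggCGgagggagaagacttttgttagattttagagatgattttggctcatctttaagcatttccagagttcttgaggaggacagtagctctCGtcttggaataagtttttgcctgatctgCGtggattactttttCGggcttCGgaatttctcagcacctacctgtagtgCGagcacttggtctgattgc
The stretches before Wnt7a and Fzd5 held 34 and 32 CpG, more than 96.5% and 95.4% of the 32851 promoters in the RefSeq table. That of Dkk2 held 7, and those of Rnf43 held 8 at the first start and 2 at the second, next to a median of 6 over all promoters and of 21 over the 33 listed promoters of the set. Promoters were found for 29 of the 45 members. The letters CAGGTG (or CACCTG on the other strand), an E-box bound by Snail and Zeb factors, were present in 10 of these 33 promoters and in 17.2% of all promoters. Of the 4 genes shown only Fzd5 had them, once. The letters CTTTGA (or TCAAAG), the core of Tcf binding sites, were present in 4 of the 33 and in 13.8% of all promoters and in none of the sequences shown. These counts describe letters in this window and say nothing of binding in the cells.

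Among the ligands, Wnt7a, which acts in many epithelia, fell with the EMT score. Its signal was 3.05, 3.66 and 4.43 (lowest, median and highest) in the mesenchymal-like lines, against 4.16, 8.05 and 9.41 in the epithelial-like lines. All mesenchymal-like lines lay at 4.43 or below, and only B-152727 among the epithelial-like lines came as low, with PPT-5671 at 5.12 and HEP2-53631 at 5.31 as the next. The slope was -0.70 (standard error 0.12, limma, adjusted p = 0.000356, n = 23 lines), and the medians of the sides differed by -4.40. PPT-17728 at 3.05 was below background and no mesenchymal-like line passed the 99th percentile of the background probe sets, so that the size of this difference is uncertain. Both other probe sets of Wnt7a missed the threshold, with slopes of 0.02 and 0.04. One of them never left the range of 4.61 to 5.34, and the other was never above background.

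Wnt5a, the ligand best known for the branches without beta-catenin, ran the other way. It had signals of 5.41, 7.12 and 8.59 in the mesenchymal-like lines and of 1.67, 4.27 and 9.02 in the epithelial-like lines, so that the sides overlapped widely. Every mesenchymal-like line was above background, and so were 9 of the 17 epithelial-like lines. Within the epithelial-like side the 4 lines of mouse 15272 lay at 1.82 to 2.87 and the 4 lines of mouse 53631 at 1.67 to 4.27. B-6051 had 5.60 and PPT-6051 had 4.64, and B-5123 and HEP-5123, also of 1 mouse, reached 6.51 and 6.88. The highest Wnt5a signal of all, 9.02, was that of PPT-5486, the epithelial-like line with the score nearest to the gap. The slope was 0.62 (standard error 0.12, limma, adjusted p = 0.00184), and 2 other probe sets of the gene passed with slopes of 0.35 and 0.44. The remaining probe set, never above background, had a slope of 0.04 (adjusted p = 0.117), and on the signal of Cdh1 alone in place of the score the adjusted p of Wnt5a was 0.0655.

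Wnt5b, the closest relative of Wnt5a, was dim, with 3.02, 3.74 and 4.52 in the mesenchymal-like and 2.52, 3.14 and 3.90 in the epithelial-like lines. It was above background in 4 of 6 and in 3 of 17 lines, and the sides overlapped. No line passed the 99th percentile of the background probe sets, 5.10, so that the size of this difference is uncertain. The slope was 0.11 (standard error 0.03, limma, adjusted p = 0.0173), and the call was lost without the lines of mouse 15272 (adjusted p = 0.102) or of mouse 53631 (adjusted p = 0.0629), and with the mesenchymal markers alone as the score (adjusted p = 0.0913). The other probe set of Wnt5b, never above background, had a slope of 0.03 (adjusted p = 0.43).

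Other ligands varied widely among lines and did not pass on the score. Wnt4, a ligand of epithelial and gonadal development, had 4.62, 5.17 and 8.34 in the mesenchymal-like and 4.60, 5.53 and 7.87 in the epithelial-like lines (slope 0.04, standard error 0.09, adjusted p = 0.834). Its 3 high lines, ASC-53909 at 8.34, ASC-5193 at 7.92 and HEP2-53631 at 7.87, came from both sides, and no other line passed 6.61. Wnt10a, a ligand of skin appendages and teeth, was high in PPT-17728 at 8.60, B-152727 at 8.45 and PPT-15272 at 7.84, the remaining lines lying at or below 6.69 (slope 0.03, standard error 0.11, adjusted p = 0.924). Wnt7b, a ligand of lung and kidney epithelium, had 6.04, 6.29 and 8.42 in the mesenchymal-like and 5.36, 7.48 and 9.85 in the epithelial-like lines. Apart from ASC-5193 at 8.42, all mesenchymal-like lines lay between 6.04 and 6.37. The slope of Wnt7b was -0.18 (standard error 0.08, adjusted p = 0.135) with all lines and -0.26 (adjusted p = 0.0195) without ASC-5193. It was -0.12 (adjusted p = 0.292) without PPT-15272 and -0.09 (adjusted p = 0.511) without all lines of mouse 15272. PPT-15272, the line with the lowest score, was the only one with Wnt11 above background, at 5.57, and had the highest signals of Wnt7a, Wnt7b and Wnt9a, at 9.41, 9.85 and 5.52.

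Among the Frizzled receptors 1 fell and 1 rose with the score. Fzd5, a receptor of canonical Wnt ligands, had 6.51, 7.32 and 8.35 in the mesenchymal-like and 8.25, 8.43 and 9.23 in the epithelial-like lines. Only PPT-17728 at 8.35 reached the epithelial-like range, and PPT-16992 at 8.11 came close. The slope was -0.19 (standard error 0.03, limma, adjusted p = 0.000653), and the other probe set of Fzd5 passed with -0.14.

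Fzd8, another receptor of canonical ligands, rose with the score. It had 5.32, 5.82 and 6.58 in the mesenchymal-like and 3.80, 4.77 and 6.17 in the epithelial-like lines. B-152727 at 6.17, PPT-5486 at 5.64 and PPT-5748 at 5.52 were the epithelial-like lines inside the mesenchymal-like range. The slope was 0.22 (standard error 0.05, limma, adjusted p = 0.00291), and a second, dimmer probe set passed with 0.09 while never above background.

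For Fzd2 the call depended on the probe set. The probe set with the highest mean had 6.65, 7.95 and 8.40 in the mesenchymal-like and 3.95, 6.83 and 8.62 in the epithelial-like lines and missed the threshold (slope 0.21, standard error 0.07, adjusted p = 0.0624), while both others passed it with slopes of 0.23 (adjusted p = 0.0407) and 0.18 (adjusted p = 0.0462). Without PPT-16992 the adjusted p of the first was 0.0374 and without PPT-15272 0.0416, while without the lines of mouse 53631 it was 0.133, and the slope was 0.16 (adjusted p = 0.0709) without PUL-15272. Its lowest signal, 3.95, was that of PUL-15272, which was also lowest for Fzd6 at 4.69. Fzd7 had 5.37, 7.08 and 8.81 in the mesenchymal-like and 4.80, 7.01 and 7.75 in the epithelial-like lines, with a slope of 0.05 (standard error 0.07, adjusted p = 0.76). B-5123 and HEP-5123, lines of 1 mouse, were the lowest for Fzd7 together with PPT-16992, at 4.80, 5.01 and 5.37, and ASC-5193 the highest. Slopes of Fzd1, Fzd3, Fzd4, Fzd6, Fzd9 and Fzd10 lay between -0.03 and 0.12 and did not pass.

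Of the co-receptors, Lrp5 fell with the score. It had 2.65, 2.87 and 4.55 in the mesenchymal-like and 4.19, 4.71 and 5.47 in the epithelial-like lines. In 4 of the mesenchymal-like lines it was at background, at 2.65 to 2.98, while PPT-16992 at 4.45 and ASC-53909 at 4.55 lay within the epithelial-like range. The epithelial-like median of 4.71 and all mesenchymal-like lines lay below the 99th percentile of the background probe sets, 5.10. The slope was -0.24 (standard error 0.05, limma, adjusted p = 0.00192), and no second probe set was available. Lrp6, the other co-receptor, had 7.29, 7.48 and 7.62 in the mesenchymal-like and 7.03, 7.75 and 7.98 in the epithelial-like lines (SD 0.23 over all lines), with a slope of -0.03 (standard error 0.02, adjusted p = 0.379). A second probe set of Lrp6 passed with -0.09 (adjusted p = 0.0136).

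**Figure D3:**
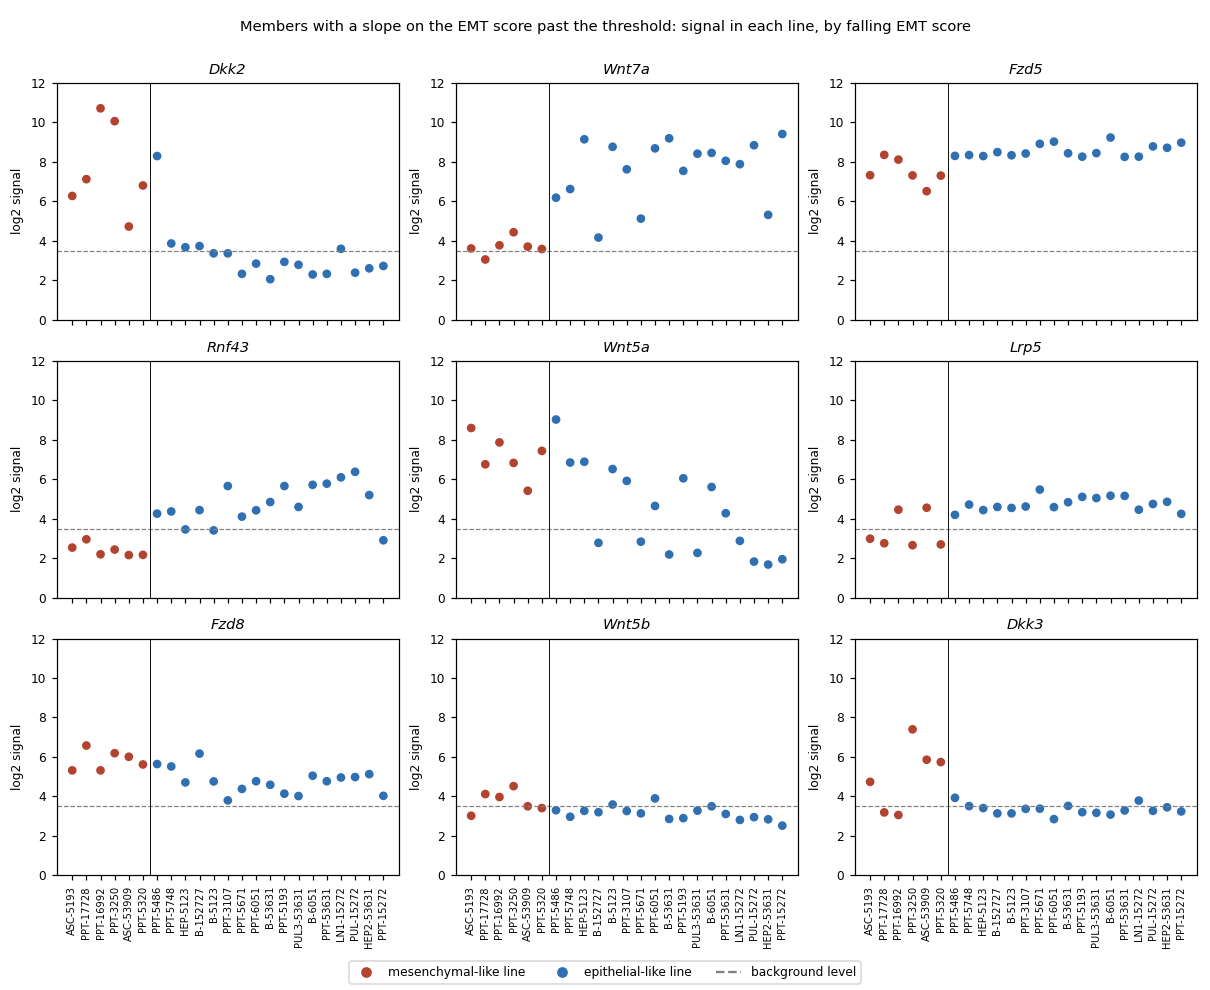
Log2 signal in each of the 23 cell lines, by falling EMT score, of the 9 genes with an adjusted p under 0.05 for the slope on the score. Red points are the 6 mesenchymal-like and blue points the 17 epithelial-like lines, 1 array each, and the dashed line is the background level of 3.495; Dkk2 is above background in all red and in 5 blue lines, and Rnf43 in no red and in 14 blue lines.

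Of the secreted antagonists, Dkk2, a ligand of the Lrp co-receptors, changed by more than any other member per unit of score. It had 4.72, 6.96 and 10.71 in the mesenchymal-like lines and 2.05, 2.84 and 8.29 in the epithelial-like lines. PPT-16992 and PPT-3250 passed 10, and PPT-5486 at 8.29 was the only epithelial-like line above 3.86. The slope was 0.80 (standard error 0.13, limma, adjusted p = 0.000165), and the medians of the sides differed by 4.12. No second probe set of Dkk2 was available.

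Dkk3, the divergent member of the Dkk family, was raised in some of the mesenchymal-like lines only. It had 3.06, 5.24 and 7.40 in them and 2.85, 3.29 and 3.93 in the epithelial-like lines. PPT-3250 at 7.40, ASC-53909 at 5.86, PPT-5320 at 5.74 and ASC-5193 at 4.74 were above all epithelial-like lines, whereas PPT-17728 at 3.19 and PPT-16992 at 3.06 were at background. The slope was 0.27 (standard error 0.07, limma, adjusted p = 0.0215), and the second probe set passed with 0.30. Leaving out PPT-5320, ASC-53909 or both ASC-5193 and PPT-5193, or the lines of mouse 53631, moved the adjusted p of Dkk3 to between 0.0512 and 0.0561.

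Sfrp1, a Wnt-binding antagonist often silenced in human carcinomas, had 4.0, 4.56 and 4.79 in the mesenchymal-like and 4.03, 4.30 and 4.97 in the epithelial-like lines and a slope of 0.03 (standard error 0.02, adjusted p = 0.513). Sfrp2 was at background except in PPT-17728 at 5.77 and in PPT-5486 at 6.42, 1 line of each side. PPT-5486 thus had the highest signals of Wnt5a, Fzd2 and Sfrp2 among the lines, together with a high Dkk2. It was also highest for Sfrp1 at 4.97 and Sfrp4 at 5.11, by small margins within narrow ranges just above background. For Sfrp4, PPT-6051 had 5.09.

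Among feedback and R-spondin genes, Rnf43 fell with the score. Its signal was 2.15, 2.31 and 2.95 in the mesenchymal-like lines, all at background, against 2.90, 4.59 and 6.37 in the epithelial-like lines. PPT-15272 at 2.90 was the 1 epithelial-like line inside the mesenchymal-like range, while the other 3 lines of its mouse had 4.43 to 6.37. The slope was -0.41 (standard error 0.08, limma, adjusted p = 0.0013), and no second probe set was available. Znrf3, the paralog of Rnf43, lay between 6.40 and 7.85 over all lines with a slope of -0.03 (standard error 0.03, adjusted p = 0.601). Lgr4, an R-spondin receptor, had 6.99, 7.99 and 9.43 in the mesenchymal-like and 6.38, 8.40 and 10.15 in the epithelial-like lines (slope -0.05, standard error 0.07, adjusted p = 0.743). Lgr5, known as a stem cell marker of the gut, was above background in 5 lines, all of them epithelial-like, with B-152727 at 5.45 and PPT-5486 at 4.85 as the highest, and its slope was -0.08 (standard error 0.07, adjusted p = 0.483). Axin2 reached 6.38 in PPT-15272 and 5.86 in B-5123 and otherwise lay at 3.95 to 5.46, with a slope of -0.07 (standard error 0.04, adjusted p = 0.341).

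Within the 17 epithelial-like lines alone, 0 members and 31 probe sets (0.0688%) passed in limma. At an unadjusted p under 0.05 there were 9 members, 20.0% of the set, next to 10.4% of all probe sets. The smallest p of the set was that of Wnt5a, with a slope of 1.11 (standard error 0.27, adjusted p = 0.122), followed by Wnt8a, which was never above background, and by Dkk2 with 0.62 (standard error 0.21, adjusted p = 0.292). PPT-5486, the line with the highest score on this side, had 8.29 for Dkk2, and no other epithelial-like line passed 3.86. For Wnt7a the slope on this side was -0.43 (adjusted p = 0.651) and for Rnf43 -0.16 (adjusted p = 0.822). Within the 6 mesenchymal-like lines 0 members and 0 probe sets (0.0%) passed in limma, and 4 members (8.89% of the set) and 11.9% of all probe sets had an unadjusted p under 0.05.

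Only 1 mouse gave lines of both sides, ASC-5193 (mesenchymal-like) and PPT-5193 (epithelial-like), which share their listed alleles. With 1 array per line the pair allows no test. Of the 45 members 13, or 28.9%, differed by more than 1 on the log2 scale, against 11.8% of all probe sets and 15.3% of genes. Of these, 8 were higher and 5 lower in ASC-5193. Wnt7a had 3.61 in ASC-5193 and 7.54 in PPT-5193, and Rnf43 had 2.53 in ASC-5193 and 5.65 in PPT-5193. Lrp5 had 2.98 in ASC-5193 and 5.10 in PPT-5193. Dkk2 had 6.27 in ASC-5193 and 2.93 in PPT-5193, and Wnt5a had 8.59 in ASC-5193 and 6.04 in PPT-5193. Dkk3 had 4.74 in ASC-5193 and 3.20 in PPT-5193. Each of these 6 genes moved in the direction of its slope over all lines, to which the pair contributed. Wnt4, Wnt9a, Fzd7, Wnt7b and Fzd8 were higher in ASC-5193 by 2.24, 2.20, 1.70, 1.31 and 1.18, and Lgr4 and Lgr5 differed by -1.59 and -1.08. Lgr5 was below background in both lines, at 2.32 in ASC-5193 and 3.40 in PPT-5193.

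Mice whose lines were all epithelial-like also showed wide ranges. In the 4 lines of mouse 15272 Wnt7a spanned 4.16 to 9.41, Rnf43 2.90 to 6.37 and Wnt10a 4.99 to 8.45. Those of mouse 53631 spanned 5.31 to 9.19 for Wnt7a and 4.60 to 7.87 for Wnt4. HEP2-53631 was the line with the lowest Wnt7a and the highest Wnt4 of its mouse. HEP-5123 and B-5123 differed by 0.38 for Wnt7a and by 0.37 for Wnt5a, but by 1.0 for Wnt7b and for Axin2. For Rnf43 both of these lines were below background, at 3.45 and 3.4. B-6051 and PPT-6051 differed by 0.23 for Wnt7a and by 0.96 for Wnt5a, but by 1.29 for Rnf43 and by 1.67 for Wnt10a. Differences between 2 lines cannot be set directly against ranges over 4 lines. With the mouse as a fixed block, which compares only lines of the same mouse, 0 members passed in limma, against 163 probe sets (0.362%), and 9 members had an unadjusted p under 0.05 (20.0% of the set and 11.1% of all probe sets). Dkk2 had the smallest adjusted p of the set in this fit, 0.0582 with a slope of 0.45 (standard error 0.08).

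**Figure D4:**
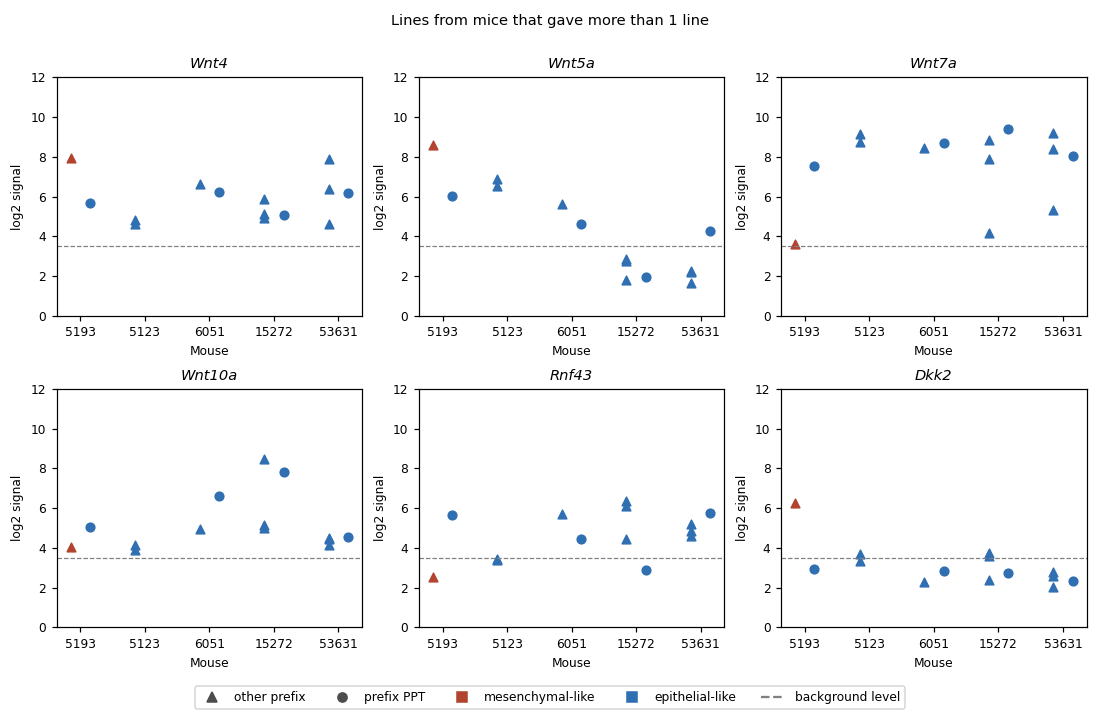
Log2 signal of Wnt4, Wnt5a, Wnt7a, Wnt10a, Rnf43 and Dkk2 in the lines of the 5 mice that gave more than 1 line. Triangles are lines with another prefix and circles PPT lines, red marks the mesenchymal-like line ASC-5193 and blue the epithelial-like lines, and the dashed line is the background level of 3.495; Wnt7a spans 4.16 to 9.41 within mouse 15272.

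To ask whether the set differed by the site of origin, the 11 lines with another prefix were compared with the 12 PPT lines. In limma 0 members and 0 probe sets passed, and 1 member had an unadjusted p under 0.05 (2.22% of the set and 3.66% of all probe sets). This was Wnt10a, with a median of 4.44 and a range of 3.88 to 8.45 in the lines with another prefix and a median of 5.53 and a range of 4.45 to 8.60 in PPT lines. The difference was -1.16 (standard error 0.48, adjusted p = 0.9999), and the ranges overlapped almost fully. Wnt5a had medians of 2.87 in lines with another prefix and 6.40 in PPT lines (difference -1.10, standard error 0.79, adjusted p = 0.9999), and Wnt7a had medians of 8.41 in lines with another prefix and 6.40 in PPT lines (difference 0.31, standard error 0.88, adjusted p = 0.9999). The mesenchymal-like lines numbered 2 among the lines with another prefix and 4 among PPT lines. When the slope on the EMT score was allowed to differ between both kinds of lines, 0 members passed for the difference of slopes, against 2 probe sets (0.00444%). At an unadjusted p under 0.05 there were 4 members (8.89% of the set and 5.68% of all probe sets), namely Dkk2, Wnt4, Wnt5b and Fzd2. The slope of Dkk2 differed by -0.55 between lines with another prefix and PPT lines (standard error 0.20, adjusted p = 0.796).

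Other genes of the pathway, from secretion of the ligands to transcription, were read from a list of 42 genes, of which 40 were measured. With rising EMT score 6 rose and 6 fell, 30.0% of the list, with a median slope of 0.0074, next to 14.2% of all genes (7.23% higher and 6.94% lower). With the mouse as a fixed block none of these calls held, with an adjusted p of 0.0669 for Wls and of 0.248 or above for the other called genes, and the slope of Ryk was 0.05. Wls, the carrier that brings Wnt ligands to the cell surface, had 9.24, 9.94 and 10.39 in the mesenchymal-like and 7.68, 8.69 and 9.96 in the epithelial-like lines, and its slope was 0.26 (standard error 0.03, limma, adjusted p = 1.6e-05). Porcn, the enzyme that attaches the lipid to Wnt ligands, ran the other way with 3.48, 5.26 and 6.02 in the mesenchymal-like and 5.52, 7.78 and 9.04 in the epithelial-like lines (slope -0.45, standard error 0.07, adjusted p = 0.000279). These genes of ligand maturation and secretion thus moved in opposite directions. Ryk, a Wnt receptor outside the Frizzled family, had 9.23, 9.33 and 9.66 in the mesenchymal-like and 7.93, 8.59 and 9.19 in the epithelial-like lines (slope 0.13, standard error 0.02, adjusted p = 0.000364). Its sides did not overlap, which also held for 1.65% of all genes. Celsr1, a cadherin of planar cell polarity, was at background in all mesenchymal-like lines, with 1.90, 2.38 and 2.54 against 2.08, 5.35 and 7.61 in the epithelial-like lines (slope -0.51, standard error 0.11, adjusted p = 0.00311). Dvl1 and Dvl2, which carry the signal from Frizzled receptors, rose with slopes of 0.17 and 0.11 (adjusted p = 0.00527 and 0.00476). The remaining calls were higher for Tcf7l1 and Pygo2 and lower for Dvl3, Myc, Ctnnb1 and Rspo4, with Rspo4 never above background. By site 0 of these 40 genes passed in limma, with 2 at an unadjusted p under 0.05, as had 3.66% of all probe sets.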

How the data were processed

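RNA of 23 murine PDAC cell lines was measured on Affymetrix GeneChip mouse genome arrays, 1 array per line. The log2 values deposited by the authors stand for whole probe sets and had been corrected for background and normalized across the arrays. For this step VSN is named in the study's methods but RMA in the submitters' processing notes. It stays unsettled which was used, and no version of either is given in the sources used here. The values were used as deposited, with array medians of 3.58 to 3.89, no pseudocount and no filter. Of 45101 probe sets 64 controls were left out, and of the remaining 45037 the platform annotation gives 34945 1 symbol, 932 several and 9160 none. The arrays carry no counts, and their number limits the precision.

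Slopes on the EMT score (mesenchymal markers Vim, Zeb1, Zeb2, Cdh2, Fn1, Twist1, Snai1 and Sparc minus epithelial markers Cdh1, Epcam, Cldn4, Cldn7, Ocln, Esrp1, Grhl2, Rab25, Dsp and Krt19), the difference by prefix and their interaction were fitted to all probe sets with limma 3.58.1 (lmFit, eBayes) in R 4.3.3, with the mouse as a random block (duplicateCorrelation, statmod 1.5.0, correlation 0.197 for the score) and Benjamini-Hochberg adjustment at 0.05. Lines of 1 mouse went together: their centred signals had a median correlation of 0.417 over 15 pairs (lowest -0.145), against -0.0854 over 238 pairs from different mice. The shared mouse was taken from the line names. Each line is 1 sample, and p-values measure the spread between lines. In the fits with a random block, lines of 1 mouse were related by 1 correlation shared by all probe sets. A gene that follows the mouse more closely than this can thus have too small a p-value. No pair of arrays was identical, and no batch was given. The fits were tested on simulated data. Tables and figures were made with Python 3.11.15, pandas 2.3.3 and matplotlib 3.10.9. Promoter letters were counted in RefSeq sequences on GRCm38.p6, 250 bases before each start.

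Genes described by values were the members passing the score fit, those above background in at least 3 lines with the 10 largest SDs, the highest mean of each role, members passing by prefix, and the 6 other pathway genes with the smallest p; Wnt3a, Wnt6, Wnt9a, Wnt10b, Wnt11, Sfrp2, Sfrp4, Sfrp5, Axin2, Lgr5, Znrf3, Fzd6 and Wnt8a are named beyond this rule, after their values were seen. The members, lists and tests were chosen with earlier results of these data known. Drug response values were not used. Part of the listed genotype is not reported here. Alternatives are given in the closing section.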

Additional observations from a re-analysis of the deposited data

How the results depend on the processing

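The 9 members passing on the EMT score became 7 to 10 when 1 line or the lines of 1 mouse were left out, 7 without mouse 53631 and 10 without ASC-5193, and 7 to 10 in limma under the other normalizations, filters, variances and scores tried, 7 where only 27 members brighter than the median probe set were tested. With the replicate block, the mouse as a fixed block, 0 members passed. Within the epithelial-like and within the mesenchymal-like lines 0 members passed as well, in fits with fewer lines. By prefix the count was 0 in every alternative run. Centring each array on its median moved the share of higher calls among all called probe sets to 66.3%, against 51.6%, and gave 10 members.

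Among the members chosen by the naming rule, for which the alternatives were run, slopes turned sign as follows. Within the mesenchymal-like lines, 6 in number and with a narrow range of scores, the slopes were 3.24 for Wnt7b, -0.73 for Wnt5b, -1.50 for Wnt10a, -0.22 for Fzd2, 0.64 for Fzd5, -0.69 for Fzd8, -2.02 for Dkk3 and 0.57 for Rnf43, none past the threshold. Within the epithelial-like lines they were -0.13 for Wnt4, -0.0862 for Fzd7, 0.0445 for Lrp6, -0.0077 for Sfrp1 and 0.0546 for Lgr4. Another probe set gave 0.0177 and 0.039 for Wnt7a, -0.0024 for Fzd7 and -0.013 for Sfrp1. Wnt10a had -0.0037 without B-152727 and -0.0179 on epithelial markers alone. Leaving out 1 line or mouse moved Wnt4 between -0.0414 and 0.108, Wnt10a between -0.0694 and 0.0922 and Fzd7 between -0.0242 and 0.0948. Of other members, Lgr5 had 0.242 within the epithelial-like lines and 0.0455 with the mouse as a fixed block, and Znrf3 0.0733 within the epithelial-like lines. The cause of these changes was not tested. Dkk2, Dkk3, Wnt5a, Wnt5b, Wnt7a, Lrp5 and Rnf43 lay at background in part of the lines, so that the size of their change is uncertain.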
